A study of Mus musculus with 48 samples.

Results

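The genes of the mouse mitochondrial genome were followed in the brains of mice with and without alkyladenine DNA glycosylase (Aag), the enzyme that starts base excision repair of alkylated bases and that is encoded by Mpg. They were taken as every row of the count table whose Ensembl identifier maps to a symbol starting with mt-, which gave 37 of 54838 rows: 13 mRNA genes, 2 rRNA genes and 22 tRNA genes. RNA came from hippocampus (HIP) and prefrontal cortex (PFC) of male mice of the genotypes Aag-/- (KO) and wild type (WT). Mice were taken at postnatal day 5 (P5), at 6 weeks (6W, juvenile) and at 4 to 6 months (6M, adult). Each of the 12 groups of tissue, genotype and age held 4 samples, and the series' design text gives 4 animals per time point.

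The mitochondrial genome is a small circular DNA present in many copies per cell. It encodes subunits of the respiratory chain and of ATP synthase, with the ribosomal and transfer RNAs that translate them, and all other mitochondrial proteins come from nuclear genes. Both strands are transcribed as long precursors, and enzymes release the mRNAs and rRNAs by cutting out the tRNAs that lie between them. Most of the released mRNAs receive a short poly(A) tail, which in several of them also completes the stop codon. Neurons depend heavily on oxidative phosphorylation, and mitochondrial transcripts are abundant in brain RNA.

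Total counts lay between 21615824 and 47343993 per sample. The targeted gene, Mpg, was at 0.944 to 2.52 CPM (the count as a rate of the library size after TMM scaling over all 48 libraries) in the 24 KO libraries and at 4.46 to 8.93 CPM in the 24 WT libraries. The summed CPM of 4 hippocampal marker genes lay between 591 and 1527 in the hippocampus libraries and between 138 and 332 in the cortex libraries. The sums of 4 cortical markers overlapped between the tissues, at 142 to 307 in hippocampus and 206 to 326 in cortex. After the data were seen, 6 libraries were picked out for their mitochondrial counts and are called the libraries that stood apart. They are replicate 1 of both hippocampus genotypes at 6W and at 6M, PFC KO P5 replicate 1 and PFC KO 6W replicate 3. No numeric rule for this choice is given here. By Dixon's critical value (below), HIP KO 6W replicate 1, HIP WT 6M replicate 1 and PFC KO 6W replicate 3 were flagged. The others were not. In PFC WT P5 replicate 1, outside the set, the mitochondrial genes took 8.65% of counts, against 10.8% in the next lowest sample. For PFC KO P5 replicate 1 these were 6.33% and 8.74%.

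Whether a read can be given to a mitochondrial gene depends on whether its sequence occurs elsewhere, because copies of mitochondrial DNA lie in the nuclear genome. Each mitochondrial gene was cut into all its 75-base words, the read length of these libraries, and the words were looked up in every other annotated GENCODE M21 transcript (GRCm38). In mt-Co2 99.5% of the words occurred in the pseudogene Gm28661, in mt-Atp6 99.5% in Gm10925, in mt-Co3 99.9% in Gm28437, in mt-Nd3 97.8% in Gm28438 and in mt-Nd4l 98.7% in Gm10222. These pseudogenes, with Gm28439 (61.5% of the words of mt-Nd4) and Gm29216 (27.5% of those of mt-Co1), follow each other on the minus strand of chromosome 1 between 24611535 and 24616197. Compared base by base from the first base of the gene, the copies of mt-Co2 (681 bases), mt-Atp6 (678), mt-Co3 (783) and mt-Nd4l (294), and 876 bases of mt-Nd4, differed from the mitochondrial gene at 0 positions. The copy of mt-Nd3 differed at 1 of 345 positions, T3C, counted from 1 at the 5′ end of the gene. The sequences below show 1 read length inside mt-Co2 (chrM:7113-7187, plus strand) beside its copy (chr1:24615391-24615465, minus strand), then the first 60 bases of mt-Nd3 (chrM:9459-9518, plus strand) beside its copy (chr1:24613060-24613119, minus strand), with the differing base in capitals.
mt-Co2: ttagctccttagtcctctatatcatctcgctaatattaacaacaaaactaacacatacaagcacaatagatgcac
Gm28661: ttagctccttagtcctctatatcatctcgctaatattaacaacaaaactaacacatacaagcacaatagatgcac
mt-Nd3: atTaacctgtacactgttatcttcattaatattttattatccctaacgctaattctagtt
Gm28438: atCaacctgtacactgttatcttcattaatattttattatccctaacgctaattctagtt

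The libraries were made from poly(A) RNA, and the ends of the mRNAs show where a tail completes a codon. The last 30 bases of 4 abundant mRNAs are printed in the order of their genes on the plus strand, for mt-Nd1 (chrM:3678-3707), mt-Co1 (chrM:6843-6872), mt-Nd4 (chrM:11515-11544) and mt-Cytb (chrM:15259-15288). Capitals mark the stop codon, of which mt-Nd4 and mt-Cytb encode the first base only.
mt-Nd1: tttacagcgggagtaccaccatacataTAG
mt-Co1: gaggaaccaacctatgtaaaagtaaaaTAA
mt-Nd4: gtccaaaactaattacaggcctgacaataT
mt-Cytb: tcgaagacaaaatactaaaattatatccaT

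The tRNA genes are 59 to 75 bases long, and 21 of the 22 are shorter than a read, so a read that covers such a gene reaches into its neighbours. The ones on which age results turn are mt-Te (tRNA for glutamate, chrM:14071-14139, minus strand), which lies directly next to mt-Nd6 on the same strand, and mt-Tw (tRNA for tryptophan, chrM:4950-5016, plus strand), whose first 2 bases, in capitals, are also the last 2 of mt-Nd2. How reads that span 2 genes were counted is not given in the sources used here.
mt-Te: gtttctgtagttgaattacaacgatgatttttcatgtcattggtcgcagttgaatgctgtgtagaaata
mt-Tw: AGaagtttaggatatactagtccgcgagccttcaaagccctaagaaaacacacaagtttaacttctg

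The mitochondrial genes took 16.8% ± 5.43 (SD, n = 48) of all counts, with a range of 6.33% to 31.6% over the libraries. Of their summed counts 62.7% fell on mRNA genes, 37.3% on the 2 rRNA genes and 0.00511% (11066 counts) on the 22 tRNA genes. Levels of different genes are compared per kilobase of gene. The libraries were made from poly(A) RNA, so the class shares and these levels are those of captured RNA. They need not follow the amounts in the tissue, and the part of capture in them was not tested. By mean CPM per kilobase over the 48 libraries, mt-Co1 (subunit 1 of cytochrome c oxidase, complex IV) was highest at 27767, followed by mt-Rnr1 (the small-subunit 12S rRNA) at 26313, mt-Rnr2 (the large-subunit 16S rRNA) at 25222 and mt-Nd1 (complex I) at 20942. Cytochrome b of complex III, mt-Cytb, reached 12108, and the complex I subunits mt-Nd4, mt-Nd2 and mt-Nd5 reached 8270.5, 7417 and 7229.6 CPM per kilobase. The only mRNA gene on the minus strand, mt-Nd6, a further subunit of complex I, stood at 19.8 CPM per kilobase.

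A group of 6 mRNA genes were close to 0 in every library. Over all 48 libraries mt-Co3 had 1371 counts, mt-Atp6 983, mt-Co2 627, mt-Nd4l 64, mt-Nd3 43 and mt-Atp8 25, together 3113 counts against 135752787 for the other 7 mRNA genes. Of them 5 are the genes with at least 97.8% of their words in a pseudogene, and the exception, mt-Atp8 (ATP synthase subunit 8), had 0% of its words in an annotated transcript. In gene order mt-Atp8 lies between mt-Co2 and mt-Atp6, whose copies Gm28661 and Gm10925 flank a stretch of chromosome 1 with no annotated transcript that shares its words. No genome sequence was used here, so that stretch was not read. Counts in the matching pseudogenes were low as well, with mean CPM over the 48 libraries of 18.5 in Gm28438, 8.22 in Gm28437, 5.77 in Gm10925, 5.13 in Gm28661 and 2.45 in Gm10222. How reads that match several places were treated is not given in the sources used here, and the part of the shared sequence in the low counts was not tested. The levels of these 6 genes are therefore uncertain, as are those of mt-Co1 and mt-Nd4, part of whose length is shared. With length taken as the words not shared, mt-Co1 moved from 27767 to 48475 and mt-Nd4 from 8270.5 to 22703 CPM per kilobase. The order of the genes then changed, with mt-Nd4 level with mt-Nd1 (22697) and above mt-Cytb (12946).

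**Figure D1:**
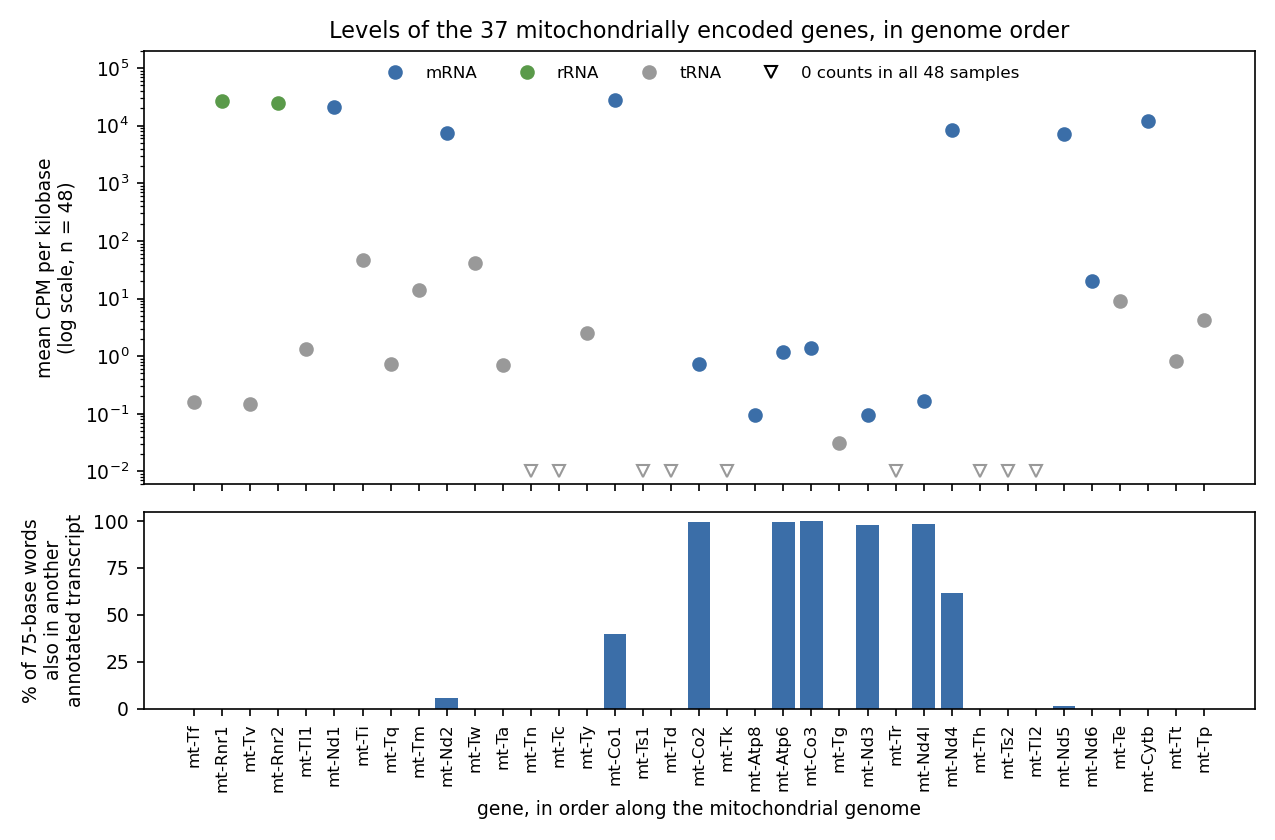
Upper panel: mean CPM per kilobase (log axis, n = 48 libraries) of the 37 genes in genome order, with open triangles for the 9 tRNA genes at 0 counts in all 48 samples. Lower panel: percent of each mRNA's or rRNA's 75-base words that occur in another annotated transcript, which is at least 97.8% in 5 of the 6 mRNA genes near 0 and 0% in mt-Atp8.

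Among the tRNA genes, 9 had 0 counts in all 48 libraries and 14 had at most 10 counts in every library. A floor of 3 counts corresponds to between 0.0634 and 0.139 CPM of a library before TMM scaling, which covers counting error only. The most counted tRNA genes were mt-Ti (isoleucine, 4237 counts over the 48 libraries), mt-Tw (3907), mt-Tm (methionine, 1251), mt-Te (737) and mt-Tp (proline, 349). These 5, with the 2 rRNA genes and 10 of the 13 mRNA genes, passed edgeR's filter on low counts in the fits of each tissue and of all samples, so 17 of the 37 genes were tested and 20 were not (17 tRNA genes, mt-Atp8, mt-Nd3 and mt-Nd4l).

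The mRNA pool was made up mainly of 6 mRNAs, whose shares were followed by group. The mean share of mt-Co1 in the mitochondrial mRNA counts lay between 37.2% and 40.7% over the 12 groups, that of mt-Nd1 between 17.2% and 21.6%, and that of mt-Cytb between 12.1% and 13.9%. The other complex I subunits took 10.9% to 13.0% (mt-Nd5), 9.23% to 10.9% (mt-Nd4) and 6.41% to 7.42% (mt-Nd2). The rRNA share of the mitochondrial counts was wider between single libraries, from 27.4% to 46.0%, with group means from 32.0% ± 2.87 (SD, n = 4) in PFC KO P5 to 40.9% ± 1.41 (SD, n = 4) in HIP KO 6M.

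The series compares 3 ages, taken here in order, first P5 with 6W and then 6W with 6M. In HIP WT the 4 samples had mitochondrial shares of 12.1%, 12.1%, 10.6% and 12.5% at P5 and 31.6%, 18.8%, 18.0% and 15.7% at 6W. HIP KO samples were at 13.2%, 10.7%, 9.59% and 12.4% and then at 28.1%, 18.0%, 17.7% and 19.7%. PFC WT samples were at 8.65%, 10.8%, 12% and 10.9% and then at 18.7%, 21.2%, 15.9% and 18.3%, and PFC KO samples at 6.33%, 11.5%, 12.4% and 8.74% and then at 17.6%, 15.8%, 14.5% and 17.3%. Every 6W sample was above every P5 sample of its tissue and genotype, in a series where 62.0% (HIP WT), 62.1% (HIP KO), 60.8% (PFC WT) and 61.4% (PFC KO) of all tested genes were called between these ages. The mean was higher at 6W, going from 11.8% ± 0.826 to 21% ± 7.18 in HIP WT and from 11.5% ± 1.64 to 20.9% ± 4.87 in HIP KO (SD, n = 4). In cortex it went from 10.6% ± 1.41 to 18.5% ± 2.15 in PFC WT and from 9.75% ± 2.76 to 16.3% ± 1.42 in PFC KO (SD, n = 4 each). The ratios were 1.78, 1.82, 1.75 and 1.67. Each difference had p = 0.0286 in a two-sided exact permutation test, the smallest p that 4 against 4 samples allow, and 0.0952 after Benjamini-Hochberg adjustment over 20 share comparisons, so it did not pass 0.05 after adjustment. Without the libraries that stood apart the differences in share were 5.68, 7.00 and 6.00 percentage points in HIP WT, HIP KO and PFC KO, against 9.20, 9.39 and 6.55 with them. A share is relative to all RNA of the tissue, and a change in the cells present and a change in the RNA per cell cannot be told apart in these bulk samples.

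**Figure D2:**
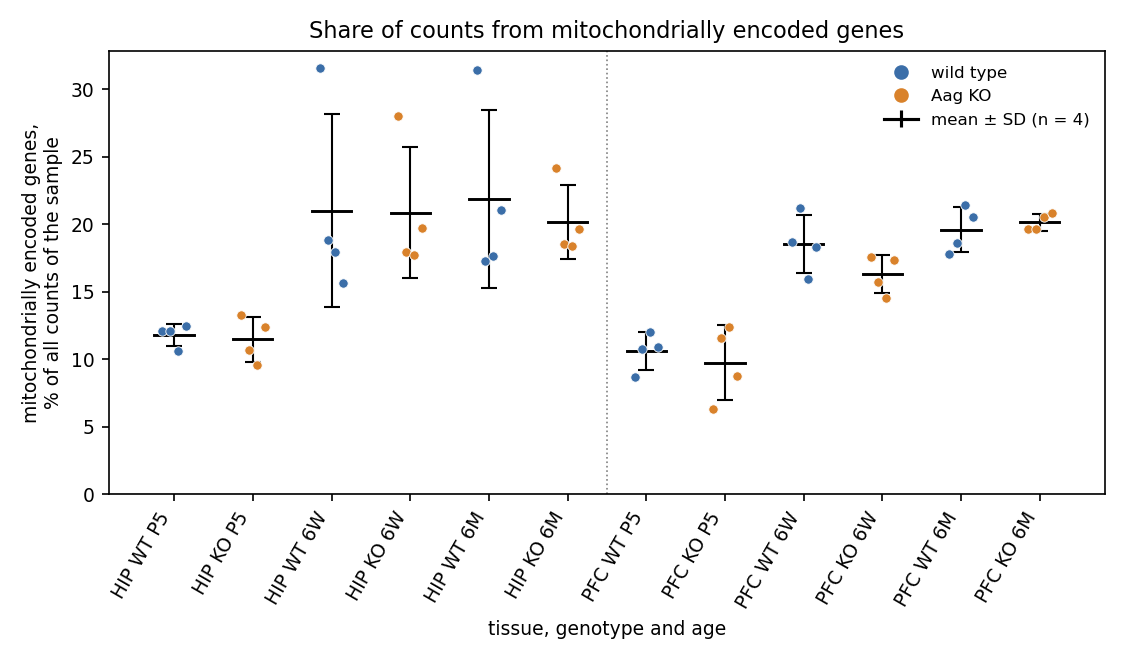
Mitochondrially encoded genes as percent of all counts in each of the 48 samples (points), by tissue, genotype and age, with the mean ± SD of the 4 samples of a group. The 16 P5 samples lie between 6.33% and 13.2% and all 32 later samples lie above them, with hippocampus replicate 1 at 6W and 6M as the highest points of their groups.

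Of the 13 marker lists read, summed CPM did not overlap between the P5 libraries and the later ones in 4 and overlapped in 9. The summed CPM of 4 oligodendrocyte markers lay between 53.5 and 87.0 at P5 and between 869.7 and 9400.4 later. That of 3 neuron markers lay between 1113 and 1699 and then 3514 and 6458. That of 4 immature neuron markers lay between 4119 and 7236 and then 400.4 and 761. No gene of these lists was at 0 in any group. The summed CPM of 3 microglia markers lay between 24.4 and 52.9 and then 116 and 196. Astrocyte markers overlapped, at 358 to 847 CPM at P5 and 839 to 1628 later. The part of the cell makeup in the mitochondrial result was not tested. Among the lists that overlapped, 4 nuclear genes of mitochondrial proteins that are often used as measures of mitochondrial content (Cs, Vdac1, Tomm20 and Hspd1) summed to 787 to 1018 CPM at P5 and to 779 to 1033 CPM later.

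Both rRNAs were higher at 6W. Over the 4 samples, mt-Rnr1 was at 13960.4, 15534, 12157 and 14972 CPM in HIP WT at P5 and at 51294, 30368, 22957 and 26294 CPM at 6W, and in PFC WT at 9963, 13904, 17172 and 12760.1 CPM and then 20311, 31847, 23448 and 28044 CPM. In the KO, mt-Rnr1 went from 15744, 10687, 10145 and 14361 to 46997, 24259.7, 28911 and 35812 CPM in hippocampus and from 5940.3, 12571, 13948 and 9061 to 25563, 20539.6, 25995 and 24028 CPM in cortex. No P5 value reached a 6W value of its tissue and genotype. The log2 fold change of mt-Rnr1 (± SE, edgeR's quasi-likelihood test with adjustment over all tested genes) was 1.21 ± 0.25 in HIP WT (adjusted p = 0.000127), 1.42 ± 0.25 in HIP KO (1.74e-05), 0.94 ± 0.21 in PFC WT (0.000419) and 1.20 ± 0.21 in PFC KO (2.31e-05). For mt-Rnr2 the group means ± SD (n = 4) went from 24088 ± 5279.5 to 52460.1 ± 21923 CPM in HIP WT and from 23688 ± 7023 to 52851 ± 15448 in HIP KO. In cortex they went from 23296 ± 5487 to 38885 ± 4791 in PFC WT and from 18367 ± 7289 to 36600.1 ± 3932 in PFC KO. Its fold changes were 1.12 ± 0.29, 1.16 ± 0.29, 0.73 ± 0.22 and 0.98 ± 0.22 in that order, again with no overlap between the ages, and all 4 were called.

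The abundant mRNAs were higher at 6W than at P5 in both tissues and genotypes. In HIP WT, mt-Co1 stood at 25096, 23806, 23814 and 24198 CPM at P5 and at 94375, 51166, 52638 and 36082 CPM at 6W, and in PFC WT at 18502, 23202, 25014 and 23246 CPM and 57656, 56008, 41594 and 46387 CPM. In HIP KO it went from 25924, 24278, 22176 and 25872 to 74394, 47438, 46798 and 45528 CPM and in PFC KO from 14044, 25972, 26951 and 21509 to 48331, 46738, 29129 and 48098 CPM. The ages did not overlap in any of these 4 comparisons, although PFC KO 6W replicate 3 came close to the P5 samples. The log2 fold changes of mt-Co1 were 1.27 ± 0.23 (HIP WT), 1.13 ± 0.23 (HIP KO), 1.15 ± 0.17 (PFC WT) and 0.95 ± 0.17 (PFC KO), with edgeR adjusted p between 1.76e-06 and 0.000104. The complex I mRNA mt-Nd1 went from a mean of 12778 ± 506 to 26112 ± 14107 CPM (SD, n = 4) in HIP WT and from 12817 ± 2789.8 to 23094 ± 3784 CPM in PFC WT. In the KO it went from 13284 ± 1252 to 25954 ± 9216 CPM in hippocampus and from 12894 ± 3548 to 19688 ± 3364 CPM in cortex. Its fold changes were 1.03 ± 0.26, 0.97 ± 0.26, 0.84 ± 0.18 and 0.60 ± 0.18 in HIP WT, HIP KO, PFC WT and PFC KO. The complex III mRNA mt-Cytb went from 8379 ± 413 to 18289.9 ± 8691 CPM in HIP WT and from 7693 ± 1361 to 17019 ± 2072 CPM in PFC WT. Its fold changes were 1.13 ± 0.24, 1.03 ± 0.24, 1.14 ± 0.15 and 0.75 ± 0.15 in the same order of groups. Without the libraries that stood apart, the log2 fold change of mt-Nd1 was 0.59 in HIP WT, 0.69 in HIP KO and 0.51 in PFC KO. That of mt-Cytb was 0.76, 0.78 and 0.73, and that of mt-Co1 0.95, 0.93 and 0.93. The rRNAs then had 0.91, 1.22 and 0.96 (mt-Rnr1) and 0.80, 0.98 and 0.74 (mt-Rnr2). Each of these was still called by edgeR.

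Counted over all tested genes of the mitochondrial genome, 15 of 17 were called between P5 and 6W in HIP WT (14 higher, 1 lower), 13 in HIP KO (12 and 1), 13 in PFC WT (12 and 1) and 12 in PFC KO (11 and 1). The background was 62.0%, 62.1%, 60.8% and 61.4% of all tested genes called, with 31.4%, 31.2%, 30.6% and 30.2% called higher and 30.6%, 31.0%, 30.3% and 31.2% called lower. The median log2 fold change of the 17 genes was 1.22, 1.11, 1.02 and 0.78, beside medians of 0.02, 0.01, 0.00 and -0.02 over all tested genes. The 8 genes above a mean of 1000 CPM (both rRNAs, mt-Co1, mt-Cytb, mt-Nd1, mt-Nd2, mt-Nd4 and mt-Nd5) were called higher in all 4 comparisons, with log2 fold changes from 0.60 to 1.42. Without the libraries that stood apart they were called in all 4 as well, with log2 fold changes of 0.59 to 0.98 in HIP WT, 0.69 to 1.22 in HIP KO and 0.51 to 0.96 in PFC KO. The near-0 mRNAs that could be tested were less uniform: mt-Atp6 was called in HIP WT, HIP KO and PFC WT, mt-Co2 in HIP WT and PFC KO, and mt-Co3 in HIP WT and HIP KO. Some of these calls were lost when 1 library was left out. In HIP KO mt-Atp6 had a log2 fold change of 1.0 ± 0.41, which was 1.02, 0.88 and 0.998 without P5 replicate 1, 3 or 4 (edgeR adjusted p = 0.0558, 0.0924 and 0.0604) and 0.67 without 6W replicate 1 (0.178). There mt-Co3 had 0.90 ± 0.35, and 0.73 without 6W replicate 1 (edgeR adjusted p = 0.0970) or 0.68 without P5 replicate 1 (0.108). In HIP WT mt-Co2 had 1.56 ± 0.58, which was 1.38 and 1.32 without P5 replicate 3 or 4 (edgeR adjusted p = 0.0612 and 0.0712) and 0.65 without 6W replicate 1 (0.338). In PFC KO mt-Co2 had 1.07 ± 0.39, and 0.99, 0.98 and 0.90 without 6W replicate 1, 6W replicate 4 or P5 replicate 1 (edgeR adjusted p = 0.0504, 0.0530 and 0.0687). Without both PFC KO libraries that stood apart it was 0.97 (edgeR adjusted p = 0.0648), and with no filter on low counts 1.03 (0.0733). Without the libraries that stood apart, 13, 11, 13 and 9 genes were called in the same order. In the test of whether the P5-to-6W change differed between the tissues, 20.8% of all tested genes were called. Of the mitochondrial genes 0 of 17 were called by edgeR and by DESeq2, and 0 had an unadjusted p under 0.05 by edgeR.

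**Figure D3:**
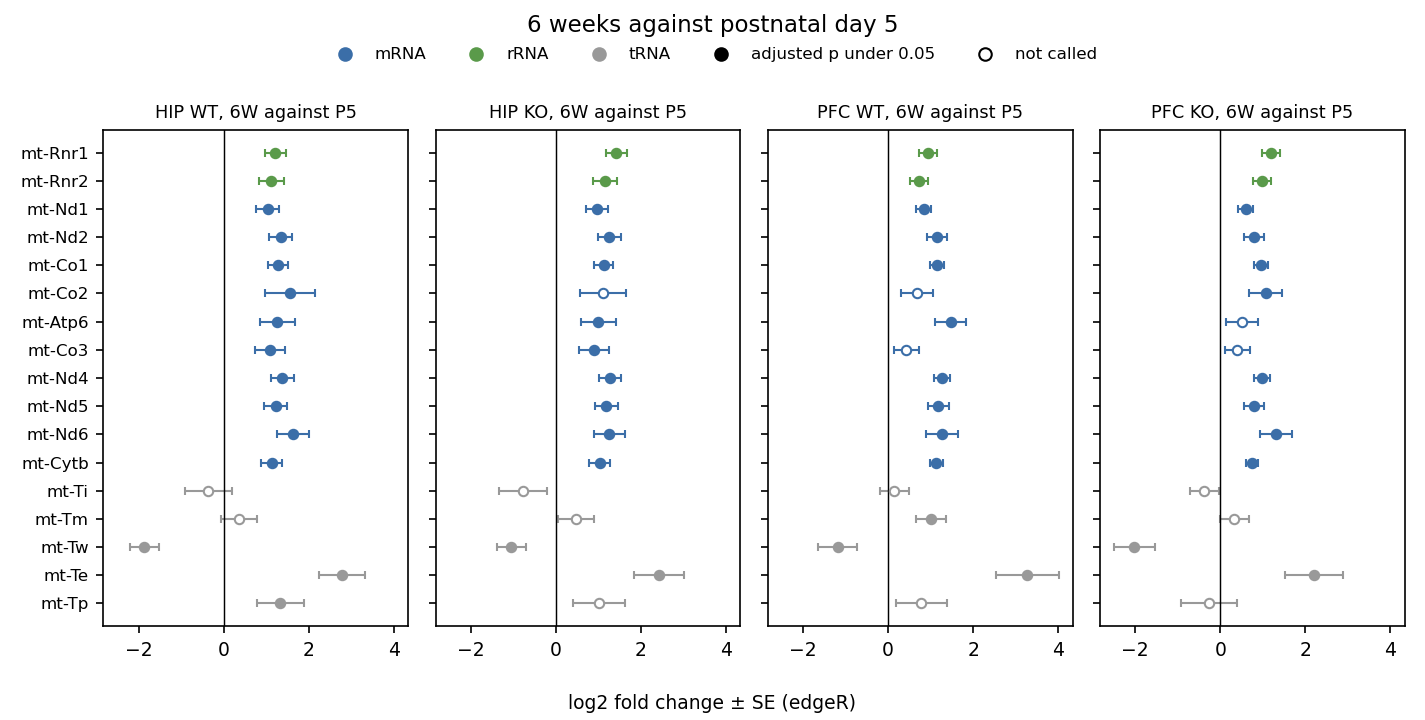
Log2 fold change ± SE (edgeR) from P5 to 6W of the 17 tested mitochondrial genes in both tissues and genotypes, with filled points for an adjusted p under 0.05. The rRNAs and abundant mRNAs lie between 0.60 and 1.42 in all panels, while mt-Te (2.2 to 3.27) and mt-Tw (-2.02 to -1.04) lie outside them. The filter on low counts kept mt-Te through its counts at the later ages.

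The minus-strand mRNA mt-Nd6, at far lower levels, moved in the same direction. Its samples were at 3.42, 3.91, 5.65 and 5.25 CPM in HIP WT at P5 and at 24.6, 14.3, 11.2 and 6.59 CPM at 6W. HIP KO samples were at 9.11, 2.48, 3.45 and 6.55 and then 14.6, 14.2, 13.9 and 8.82 CPM, with 6W replicate 4 the lowest of its age. PFC WT samples were at 4.61, 4.61, 5.52 and 5.84 and then 23.9, 10.03, 7.23 and 8.62 CPM. PFC KO samples were at 1.41, 6.63, 6.13 and 2.53 and then 10.9, 10.7, 15.0 and 5.19 CPM. The ages overlapped in both KO groups and not in the WT groups. The log2 fold changes were 1.63 ± 0.38 in HIP WT (edgeR adjusted p = 0.000480), 1.26 ± 0.37 in HIP KO (0.00460), 1.26 ± 0.37 in PFC WT (0.00482) and 1.32 ± 0.38 in PFC KO (0.00372). In PFC WT the call was lost without 6W replicate 1, the highest sample (0.73, edgeR adjusted p = 0.0705), and in PFC KO without P5 replicate 1 and 6W replicate 3 (0.79, 0.0614). Its 3′ end overlaps that of mt-Nd5 by 14 bases on the other strand, and the strand setting of the counting is not given in the sources used here.

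Among the tested tRNA genes, mt-Te had the largest fitted rise and mt-Tw fell in all 4 comparisons. With at most 10 counts in any P5 library, mt-Te passed the filter on low counts through the later ages. Its rise is therefore not independent of the filter. The counts of mt-Te at P5 were 5, 5, 0 and 7 in HIP WT, 2, 8, 1 and 2 in HIP KO, 1, 0, 5 and 2 in PFC WT and 2, 10, 2 and 1 in PFC KO, at or under the floor of 3 counts in 10 of the 16 P5 libraries. At 6W the hippocampus libraries had 41, 18, 16 and 13 counts in WT and 15, 12, 16 and 20 in KO. The cortex libraries had 32, 13, 19 and 6 counts in WT and 14, 12, 22 and 8 in KO. In CPM, the ages overlapped in PFC KO, where P5 replicate 2 (0.300 CPM) lay above 6W replicate 4 (0.288 CPM). They did not overlap in the other groups. The fitted log2 fold changes, which rest on these few counts, were 2.78 ± 0.55 (HIP WT, edgeR adjusted p = 8.64e-05), 2.42 ± 0.59 (HIP KO, 0.000913), 3.27 ± 0.74 (PFC WT, 0.000472) and 2.2 ± 0.68 (PFC KO, 0.00726). The PFC KO call was lost without the 2 libraries of that comparison that stood apart (1.5, edgeR adjusted p = 0.0962).

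For mt-Tw the P5 samples were at 2.80, 7.13, 5.23 and 3.35 CPM in HIP WT and the 6W samples at 1.64, 1.08, 1.36 and 1.03 CPM, without overlap. The HIP KO samples went from 2.53, 1.69, 3.29 and 2.32 to 2.23, 0.924, 0.986 and 0.699 CPM. The PFC WT samples went from 2.71, 5.56, 7.96 and 10.96 to 1.90, 4.15, 2.32 and 3.65 CPM and the PFC KO samples from 2.12, 4.95, 10.1 and 6.23 to 0.905, 1.02, 0.493 and 3.31 CPM. The ages overlapped in each of these 3 groups. The log2 fold changes were -1.86 ± 0.34 (HIP WT, edgeR adjusted p = 2.49e-05), -1.04 ± 0.34 (HIP KO, 0.00984), -1.19 ± 0.45 (PFC WT, 0.0268) and -2.02 ± 0.48 (PFC KO, 0.000823). In PFC WT the call was lost without any one of 4 libraries, P5 replicates 3 and 4 and 6W replicates 1 and 3, with log2 fold changes of -1.11, -0.86, -1.02 and -1.08 and edgeR adjusted p of 0.0563, 0.126, 0.0807 and 0.0711. The gene that shares 2 bases with mt-Tw, mt-Nd2, rose in the same comparisons (1.34 ± 0.28, 1.26 ± 0.28, 1.16 ± 0.24 and 0.80 ± 0.24). Of the other tested tRNA genes, mt-Tm was called in PFC WT (1.02 ± 0.36, a call lost without P5 replicate 1, 0.79, edgeR adjusted p = 0.0654) and mt-Tp in HIP WT (1.33 ± 0.55). The mt-Tp call was lost without any one of 5 libraries, 6W replicates 1 and 2 and P5 replicates 1, 3 and 4 (log2 fold changes from 1.01, without 6W replicate 1, to 1.36, edgeR adjusted p from 0.0610 to 0.147) and with no filter on low counts (1.33, 0.0515), and mt-Ti was called in none of the 4 comparisons.

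**Figure D4:**
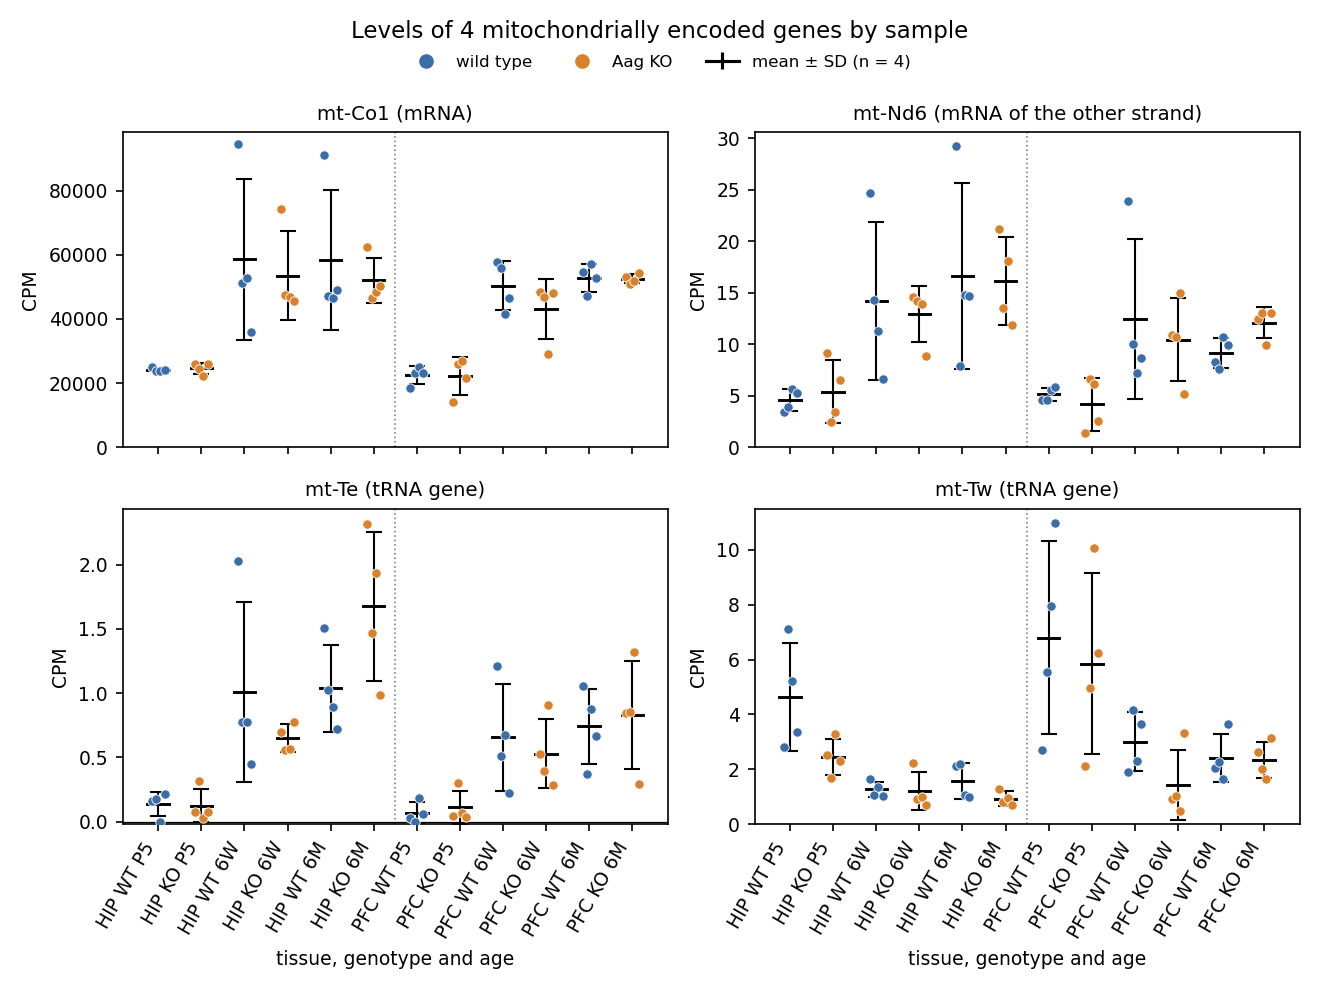
CPM of mt-Co1, mt-Nd6, mt-Te and mt-Tw in each sample (points) by tissue, genotype and age, with mean ± SD (n = 4). The group means of the first 3 are lowest at P5 in both tissues and genotypes (mt-Co1 samples at 14044 to 26951 CPM at P5), whereas mt-Tw is highest in the P5 groups and reaches 10.96 CPM in PFC WT.

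The same test was run with libraries scaled to their summed mitochondrial mRNA counts, which asks which genes moved relative to the mitochondrial mRNAs as a whole. On that scale the median of all tested genes between P5 and 6W was -0.998 in HIP WT, -1.03 in HIP KO, -1.12 in PFC WT and -0.90 in PFC KO, and 70.0%, 71.1%, 74.8% and 69.4% of all tested genes were called. These calls include the shift of the whole scale. Of the 17 mitochondrial genes 3, 3, 4 and 4 were called. Without the libraries that stood apart 4, 4, 6 and 3 were called (1, 2, 1 and 0 higher and 3, 2, 5 and 3 lower), so calls were also gained. The genes named next are those called with all libraries. Higher in all 4 was mt-Te, by 1.54 ± 0.54, 1.38 ± 0.57, 2.22 ± 0.74 and 1.52 ± 0.68 log2 units. As said above, mt-Te passed the filter on low counts through the later ages. Lower in all 4 were mt-Tw, with log2 fold changes of -2.97 ± 0.35, -2.21 ± 0.35, -2.24 ± 0.39 and -2.86 ± 0.40, and mt-Ti, with -1.35 ± 0.53, -1.69 ± 0.54, -0.97 ± 0.31 and -1.07 ± 0.32. The remaining gene was mt-Nd1 in PFC WT (-0.26 ± 0.10, edgeR adjusted p = 0.0200) and mt-Rnr1 in PFC KO (0.46 ± 0.17, 0.0214). The mt-Nd1 call was lost without PFC WT P5 replicate 3 (-0.24, edgeR adjusted p = 0.0544), and the mt-Rnr1 call without PFC KO 6W replicate 3 (0.23, 0.208) or P5 replicate 4 (0.42, 0.0543). Scaling to all mitochondrial genes gave -0.16 for mt-Nd1 (edgeR adjusted p = 0.174) and, in PFC KO, 1.38 for mt-Te (0.0715), and a median of ratios over the mitochondrial mRNAs gave -0.21 (0.0507) and 1.5 (0.0505). The mt-Te calls on this scale were lost without HIP WT P5 replicate 3 (1.17, edgeR adjusted p = 0.0550). They were also lost without any one of 4 libraries in HIP KO (P5 replicates 1, 3 and 4 and 6W replicate 4, log2 fold changes of 1.08 to 1.2, edgeR adjusted p 0.0756 to 0.113) and of 5 in PFC KO (P5 replicates 1, 3 and 4 and 6W replicates 1 and 3, log2 fold changes of 0.92 to 1.6, edgeR adjusted p 0.0587 to 0.243). Without both PFC KO libraries that stood apart, mt-Te was at 0.77 (edgeR adjusted p = 0.355) and mt-Rnr1 at 0.19 (0.297) on this scale. The mt-Ti call in HIP WT was lost without P5 replicate 2 (-0.81, edgeR adjusted p = 0.188) or 6W replicate 1 (-0.99, 0.0993). In PFC KO the number of genes called ranged from 2 without P5 replicate 4 to 7 without 6W replicate 4. With all libraries, no other rRNA or abundant mRNA was called on this scale in any of the 4 comparisons. The abundant mRNAs make up nearly all of the total used for scaling, so their changes on it are tied to one another in advance. The lack of calls among them is therefore no separate result.

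The 12 annotated nuclear pseudogenes that share 75-base words with a mitochondrial gene were also higher at 6W. All 48 tests (12 pseudogenes in 4 comparisons) had that direction, with log2 fold changes from 0.74 to 2.25 and adjusted p under 0.05 by edgeR, beside 31.4%, 31.2%, 30.6% and 30.2% of all tested genes called higher in HIP WT, HIP KO, PFC WT and PFC KO. The most counted was Gm13340 on chromosome 2, which holds 15% of the words of mt-Co1, at a mean of 94.5 CPM, against 42900.5 CPM for mt-Co1. Reads of a mitochondrial transcript and of such a copy cannot be told apart where the words are the same.

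From 6W to 6M, 0 of 17 mitochondrial genes were called in each of the 4 comparisons by edgeR and by DESeq2, where 0.157% (HIP WT), 0.450% (HIP KO), 0.0386% (PFC WT) and 0.0937% (PFC KO) of all tested genes were called. At an unadjusted p under 0.05 edgeR gave 0, 1, 0 and 2 genes. Of all 17786 genes tested in hippocampus, 1867 (HIP WT) and 1203 (HIP KO) had such a p. The log2 fold changes of the 8 abundant genes lay between -0.20 and 0.51. In PFC KO the mitochondrial share went from 17.6%, 15.8%, 14.5% and 17.3% to 19.6%, 19.6%, 20.5% and 20.8%, with no overlap and a difference of 3.85 percentage points (two-sided exact permutation p = 0.0286, adjusted 0.0952; 3.27 points without 6W replicate 3). Its 2 genes with an unadjusted p under 0.05 were mt-Nd2 (0.51 ± 0.23, edgeR adjusted p = 0.419) and mt-Nd5 (0.49 ± 0.23, 0.444). The other share differences between 6M and 6W were 0.836 (HIP WT), -0.696 (HIP KO) and 1.07 (PFC WT) percentage points, with exact permutation p of 0.771, 0.857 and 0.543. Without replicate 1 of both ages, which stood apart, the differences were 1.18 in HIP WT and 0.376 in HIP KO, so the sign changed in HIP KO. In HIP KO, mt-Te was at 0.698, 0.555, 0.564 and 0.777 CPM at 6W and 2.32, 1.47, 1.94 and 0.983 CPM at 6M, without overlap and with a log2 fold change of 1.37 ± 0.45 (edgeR adjusted p = 0.320). With no filter on low counts this difference was called (1.37, edgeR adjusted p = 0.0328). For this pair of groups the same-numbered samples met the check for pairing, and the fit with the replicate block called 0 of 17 genes as well.

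The comparison of KO with WT asks what loss of Aag changes, and it gave no call in the mitochondrial genes. In each of the 6 comparisons (3 ages in each tissue), in the averages over ages and in the tests of genotype by age, 0 of 17 genes were called by edgeR and by DESeq2. Of all tested genes 0.118%, 0.0394% and 0.0450% were called in hippocampus at P5, 6W and 6M, 0.0496%, 0.0331% and 0.0331% in cortex, 0.0675% and 0.0661% in the averages over ages, and 0.00562% and 0.00551% in the tests of genotype by age. At an unadjusted p under 0.05, edgeR gave 1, 0 and 1 mitochondrial genes in hippocampus, 0, 3 and 0 in cortex, 1 in each average over ages, and 0 in each test of genotype by age. Of the 17786 genes tested in hippocampus, 1392, 769 and 577 had such a p at P5, 6W and 6M. In the hippocampus average over ages 1039 had it, and in the test of genotype by age 859. The cortex numbers over all genes are not given here. The median log2 fold change of the 17 genes was 0.02, -0.08 and -0.19 in hippocampus and -0.03, -0.27 and 0.07 in cortex, beside medians over all tested genes between 0.00 and 0.03. For the 8 abundant genes the log2 fold changes lay between -0.47 and 0.18 over the 6 comparisons, with standard errors from 0.15 to 0.29.

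By sample, mt-Co1 at 6M was at 90995, 47194, 46608 and 48939.5 CPM in HIP WT and 62449.6, 46629.8, 48549.7 and 50341 CPM in HIP KO, and at 54512, 47007, 57088 and 52622 CPM in PFC WT and 53147, 51012, 51841 and 54328 CPM in PFC KO. The genotypes overlapped in both tissues. The rRNA mt-Rnr2 at 6M was at 96546, 35926, 41197 and 63096 CPM in HIP WT and 74136, 46134, 46266 and 54295 CPM in HIP KO, and at 31258, 42873, 56758 and 53054 and 41474, 49194, 49325 and 52814 CPM in PFC WT and PFC KO, again with overlap. The mitochondrial shares of KO and WT overlapped at every age in both tissues, with differences (KO minus WT) of -0.338, -0.15 and -1.68 percentage points in hippocampus at P5, 6W and 6M and of -0.838, -2.22 and 0.566 in cortex. Exact permutation p-values were 0.8, 0.943 and 0.743 in hippocampus and 0.657, 0.143 and 0.486 in cortex. Without the libraries that stood apart these differences were 0.980 and 0.175 in hippocampus at 6W and 6M and 0.302 and -1.63 in cortex at P5 and 6W, so the sign changed in 3 of them. The mean shares themselves were 21.8% ± 6.59 in HIP WT 6M, 20.2% ± 2.71 in HIP KO 6M, 19.6% ± 1.67 in PFC WT 6M and 20.2% ± 0.631 in PFC KO 6M (SD, n = 4).

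The smallest adjusted p among the genotype comparisons belonged to mt-Tw in hippocampus at P5, where the samples were at 2.80, 7.13, 5.23 and 3.35 CPM in WT and 2.53, 1.69, 3.29 and 2.32 CPM in KO, with overlap. Its log2 fold change was -0.90 ± 0.31 (edgeR adjusted p = 0.389), and -0.57 ± 0.20 in the average over ages (0.686). With no filter on low counts both were called, at -0.89 (edgeR adjusted p = 0.0238) and -0.57 (0.0415). The cortex values for mt-Tw were -0.23 ± 0.44 at P5, -1.06 ± 0.49 at 6W and 0.01 ± 0.48 at 6M, none of them called. In the 6W hippocampus, where same-numbered samples met the check for pairing, 0 of 17 genes were called with the replicate block.

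**Figure D5:**
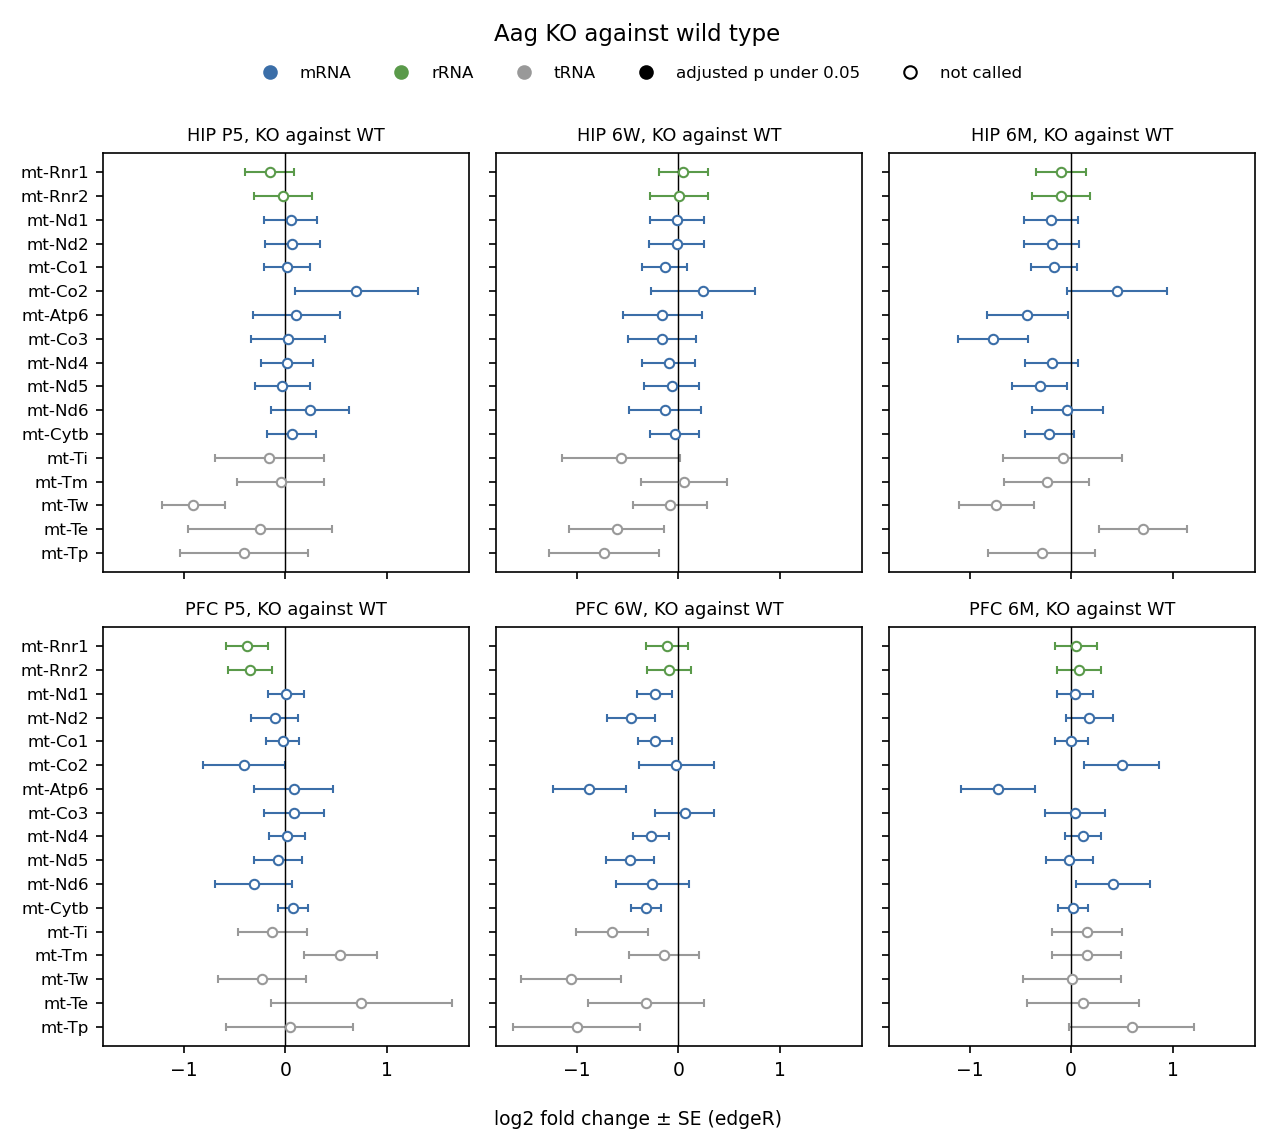
Log2 fold change ± SE (edgeR) of KO against WT for the 17 tested mitochondrial genes at each age in both tissues, where open points are not called. All points are open, and the 8 abundant genes lie between -0.47 and 0.18.

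Between the tissues the mitochondrial share differed by at most 4.56 percentage points in each pair of groups. HIP minus PFC was 1.22 (WT P5), 2.50 (WT 6W), 2.26 (WT 6M), 1.72 (KO P5), 4.56 (KO 6W) and 0.0136 (KO 6M) percentage points. Among these, KO at 6W did not overlap between the tissues (exact permutation p = 0.0286, adjusted 0.0952), and the other 5 had exact permutation p from 0.229 to 0.943. Without the libraries that stood apart the differences were -1.03, -0.920, 0.582, 1.58 and -1.31 for WT 6W, WT 6M, KO P5, KO 6W and KO 6M, so that 3 of the 5 were then below 0. By edgeR, 1 of 17 genes was called in WT 6W, KO P5 and KO 6M and 0 in WT P5, WT 6M and KO 6W, while 26.9%, 24.3%, 19.7%, 26.0%, 22.4% and 26.4% of all tested genes were called in these comparisons. The called gene was mt-Tw each time, lower in hippocampus by log2 fold changes of -1.25 ± 0.45 (edgeR adjusted p = 0.0353), -1.23 ± 0.41 (0.0232) and -1.35 ± 0.48 (0.0380). Each of these calls was lost when one of several libraries was left out. In WT 6W these were HIP replicate 2, 3 or 4 or PFC replicate 2 or 4 (log2 fold changes of -1.28 to -1.05, edgeR adjusted p 0.0600 to 0.114). They were HIP replicate 2 or 4 or PFC replicate 3 in KO P5 (-1.2 to -0.83, 0.0544 to 0.15), and HIP replicate 2, 3 or 4 or PFC replicate 1 or 4 in KO 6M (-1.36 to -1.16, 0.0713 to 0.130). In WT 6M 1 gene was called without HIP replicate 2 or without PFC replicate 2. At unadjusted p under 0.05 edgeR gave 0 genes in WT P5, 2 in WT 6M and 2 in KO 6W, and DESeq2 called 0 in each of these 3. With only the compared samples fitted, 3 genes were called higher in hippocampus in KO 6W: mt-Rnr1 (0.50, edgeR adjusted p = 0.0342), mt-Rnr2 (0.53, 0.0290) and mt-Nd2 (0.60, 0.0366). With no filter on low counts mt-Nd2 was called higher in hippocampus in KO 6W (0.61, edgeR adjusted p = 0.0188) and mt-Nd6 in WT 6M (0.87, 0.0123). At 6M the samples of mt-Tw were at 1.3, 0.797, 0.946 and 0.688 CPM in HIP KO and 2.62, 2.0, 1.66 and 3.13 CPM in PFC KO, and at 2.11, 2.18, 1.05 and 0.995 and 2.03, 2.28, 1.64 and 3.65 CPM in HIP WT and PFC WT.

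For the libraries that stood apart, mitochondrial values and cell type markers were set beside those of the other samples of their groups. At 6W, hippocampus replicate 1 had a mitochondrial share of 31.6% in WT and 28.1% in KO, against 15.7% to 18.8% and 17.7% to 19.7% in the other samples of those groups. Their oligodendrocyte marker sums were 9400.4 and 8872 CPM, against 4012 to 5971 and 4051 to 5129.5 CPM in the others, and their astrocyte marker sums were 1628 and 1606 CPM against 1075 to 1142 and 1029 to 1136 CPM. Their neuron marker sums were lower, at 3514 and 3703 CPM against 4282 to 4578 and 4353 to 4764 CPM. The sums of Cs, Vdac1, Tomm20 and Hspd1 were 779 and 877 CPM, against 899 to 917 and 890 to 954 CPM. At 6M the share of replicate 1 was 31.4% in WT and 24.1% in KO, against 17.3% to 21.1% and 18.4% to 19.6%, with oligodendrocyte sums of 4637 and 3467 CPM against 2931 to 4090.3 and 2632 to 3371 CPM. Its neuron sums were 4505 (WT) and 4899 CPM (KO), against 4534 to 4627 and 4748 to 5008 CPM. The sums of Cs, Vdac1, Tomm20 and Hspd1 were 899 (WT) and 1004 CPM (KO), against 920 to 1033 and 837 to 994 CPM. PFC KO P5 replicate 1 had the lowest share of all libraries, 6.33%, with an immature neuron marker sum of 5079 CPM against 6349 to 6801 CPM in the others of its group. PFC KO 6W replicate 3 had mt-Co1 at 29129 CPM and mt-Nd5 at 6072 CPM, below the other 3 samples of its group, but mt-Rnr1 at 25995 CPM, the highest of them, and its neuron marker sum was 5067 CPM against 5511 to 5804 CPM. With the lowest share of its group (14.5% against 15.8% to 17.6%), it had a higher oligodendrocyte marker sum, 2715 CPM against 1813 to 2459 CPM. Striatum markers, of the region below the cortex, summed to 168 CPM in PFC KO P5 replicate 1 against 49.0 to 67.9, and to 343 CPM in PFC KO 6W replicate 3 against 58.0 to 202. The hippocampus markers of PFC KO P5 replicate 1 summed to 332 CPM against 178 to 192, and those of HIP WT 6M replicate 1 to 591 CPM against 890.3 to 937. The cortex markers of HIP WT 6M replicate 1 summed to 307 CPM against 158 to 175. In hippocampus replicate 1 of the other groups they summed to 142 CPM in WT 6W (others 183 to 265), 230 in KO 6W (150 to 195) and 221 in KO 6M (199 to 294). The part of the cell and tissue makeup in these values was not tested.

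Nuclear genes that transcribe, process, stabilise and copy the mitochondrial genome were read from a list of 51, all of which were tested. From P5 to 6W, 12 rose and 8 fell in HIP WT, 13 rose and 11 fell in HIP KO, 13 rose and 12 fell in PFC WT, and 12 rose and 15 fell in PFC KO, where 62.0%, 62.1%, 60.8% and 61.4% of all tested genes were called. The median log2 fold change of the list was 0.04, 0.00, -0.11 and -0.07. In all 4 comparisons 10 of the 51 genes rose and 6 fell, beside 21.2% and 21.7% of the 17282 genes tested in all 4. Among those that rose was Ppargc1b, a coactivator of mitochondrial biogenesis, at 3.10 ± 0.312 CPM at P5 and 5.97 ± 0.976 CPM at 6W (SD, n = 4) in HIP WT (0.95 ± 0.18, edgeR adjusted p = 6.75e-05). In PFC WT it was at 2.71 ± 0.621 CPM at P5 and 8.15 ± 1.18 CPM at 6W (SD, n = 4) (1.57 ± 0.22, edgeR adjusted p = 1.19e-06). Rrm2b, a subunit of ribonucleotide reductase, was at 26.9 ± 3.41 CPM at P5 and 47.9 ± 2.22 CPM at 6W (SD, n = 4) in HIP WT (0.83 ± 0.09, edgeR adjusted p = 1.75e-08). Mterf2, of the mitochondrial transcription termination factor family, was at 6.01 ± 0.809 CPM at P5 and 11.3 ± 1.49 CPM at 6W (SD, n = 4) in PFC WT (0.90 ± 0.16, edgeR adjusted p = 2.40e-05).

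Among those that fell was Lig3, the DNA ligase of mitochondria, at 38.5 ± 1.93 CPM at P5 and 19.8 ± 1.16 CPM at 6W (SD, n = 4) in HIP WT (-0.96 ± 0.09, edgeR adjusted p = 3.49e-10). In PFC WT it was at 41.1 ± 1.37 CPM at P5 and 18.0 ± 1.37 CPM at 6W (SD, n = 4) (-1.20 ± 0.09, edgeR adjusted p = 2.60e-11). Pprc1, a coactivator related to Ppargc1b, was at 31.7 ± 3.21 CPM at P5 and 18.8 ± 1.54 CPM at 6W (SD, n = 4) in HIP WT (-0.75 ± 0.11, edgeR adjusted p = 1.84e-06). In PFC WT it was at 41.8 ± 2.52 CPM at P5 and 19.4 ± 2.29 CPM at 6W (SD, n = 4) (-1.12 ± 0.15, edgeR adjusted p = 3.65e-07). Tfam, which packages the mitochondrial genome and activates its transcription, and Polrmt, the mitochondrial RNA polymerase, were named after their values were seen. Tfam had log2 fold changes of 0.02 ± 0.09, 0.08 ± 0.09, -0.14 ± 0.12 and 0.11 ± 0.12 in HIP WT, HIP KO, PFC WT and PFC KO and was called in none. Polrmt had -0.34 ± 0.12, -0.13 ± 0.12, -0.17 ± 0.14 and -0.58 ± 0.14 and fell in HIP WT and PFC KO. By role, the counts that rose and fell in HIP WT were 2 and 1 of 10 transcription genes, 4 and 1 of 13 processing genes, 1 and 1 of 9 stability genes, 2 and 3 of 12 genes of the mitochondrial DNA and 3 and 2 of 7 coactivators and nuclear factors. In KO against WT averaged over ages, 0 of the 51 were called in either tissue by edgeR, with 3 in hippocampus and 0 in cortex at an unadjusted p under 0.05. Of all 17786 genes tested in hippocampus, 1039 had such a p.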

How the data were processed

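Poly(A)-selected, stranded libraries (Lexogen SENSE mRNA kit) of column-purified RNA were read as 75-base single ends, per the labels' protocols. Base calls came from bcl2fastq 2.20.0.422, reads were aligned with STAR 2.4.0 and counted with HTSeq on GRCm38, per the submitters' processing notes. The deposited table holds the authors' raw read counts per Ensembl gene. The annotation release, the use of strand and the treatment of reads with several matches are not given in the sources used here.

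Symbols, positions and sequences came from GENCODE M21 (GRCm38), which named 54723 of 54838 identifiers. The mitochondrial genes and the gene lists were chosen with earlier results of these data known. Counts were tested with edgeR 4.0.16 (R 4.3.3; filterByExpr, TMM, quasi-likelihood) in 1 fit per tissue over 24 libraries with 18 residual degrees of freedom, or over 48 libraries for tissue comparisons, with Benjamini-Hochberg adjustment over all tested genes and a threshold of 0.05. CPM use TMM factors over 48 libraries. Shares of counts were compared in 20 two-sided exact permutation tests (Python 3.11.15, SciPy 1.17.1), and figures were drawn with matplotlib 3.10.9. The test script was tested on simulated data. All count columns were mapped to samples. Where nothing ties a sample to its own animal, p-values measure the spread between samples only. Values are given for the 3 mRNAs with the highest CPM per kilobase, both rRNAs, mt-Nd6, genes called between genotypes, the called genes with the largest and smallest change from P5 to 6W, and the 2 largest rises and falls of the nuclear list in WT of each tissue; other genes named were chosen after their values were seen.

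Replicate numbers come from the labels, which do not say that a number marks an animal. Samples with the same number deviated together over 9731 genes (all 4 correlations above 0.1) in HIP 6W KO against WT (mean 0.339) and HIP KO 6M against 6W (mean 0.367), and not in the other 18 comparisons. Alternatives were DESeq2 1.42.0, other scalings, no filter on low counts, only the compared samples, the replicate block, each replicate left out and, added after seeing the data, the libraries that stood apart left out, nuclear pseudogenes added to the share, and length as unshared words.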

Additional observations from a re-analysis of the deposited data

Results flagged for a closer look

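In 10 of 120 sets of 4 samples, 1 sample lay far from the other 3 (beyond Dixon's 95% critical value), where 6 would be expected by chance at 1 in 20. Hippocampus replicate 1 accounts for 5 of them. In HIP KO 6W it had mt-Co1 at 74394 CPM (others 45528 to 47438) and mt-Cytb at 26364 CPM (others 14036 to 15819). In HIP WT 6M it had mt-Co1 at 90995 CPM (others 46608 to 48940), mt-Nd1 at 41130 CPM (others 19018 to 22131) and mt-Cytb at 28344 CPM (others 13581 to 15257). PFC KO 6W replicate 3 had mt-Co1 at 29129 CPM, below the 46738 to 48331 CPM of its group. For mt-Nd6, HIP KO 6W replicate 4 was low at 8.82 CPM (others 13.9 to 14.6), and PFC WT 6W replicate 1 was high at 23.9 CPM (others 7.23 to 10.03). For mt-Te, replicate 2 was high in HIP KO P5 at 0.315 CPM (others 0.0308 to 0.0736) and in PFC KO P5 at 0.300 CPM (others 0.0356 to 0.0635), values that rest on at most 10 counts.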

How the results depend on the processing

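The number of mitochondrial genes called stayed within 1.5 times its value in 462 of 483 recomputations. Results with 0 calls that stayed at 0 are among these. So is PFC KO from P5 to 6W, with 12 genes called and 9 without the libraries that stood apart. With no filter on low counts 1 gene was called, in place of 0, in HIP P5 KO against WT, HIP KO against WT over all ages, HIP KO 6M against 6W, and HIP against PFC in WT 6M and KO 6W, while mt-Co2 in PFC KO and mt-Tp in HIP WT lost their P5-to-6W calls. With only the compared samples fitted, HIP against PFC gave 0 genes in KO P5 and 3 in KO 6W. Leaving out 1 replicate gave 0 to 1 genes for HIP against PFC in WT 6W, WT 6M, KO P5 and KO 6M, and 2 to 7 in PFC KO from P5 to 6W relative to the mitochondrial mRNAs. The share difference changed sign in 34 of 275 recomputations, in 11 of 20 comparisons and in 0 of the 4 between P5 and 6W: 17 with 1 replicate left out, 7 without the libraries that stood apart and 10 with another measure. As a log2 ratio of mitochondrial to nuclear counts it was 0.0128 in HIP 6W KO against WT and -0.00676 in KO 6M between tissues. With the 13 mRNAs only it was 0.00521 (PFC P5, KO against WT), -0.0340 (HIP WT, 6M against 6W), -0.0640 (PFC WT, 6M against 6W) and -0.669 (KO 6M, HIP against PFC) percentage points, and without the rRNA genes 0.00510, -0.0340, -0.0641 and -0.669; the cause was not tested. The replicate block called 15, 13, 13 and 12 genes from P5 to 6W and changed no call count of the mitochondrial genes. Of 891 recomputed log2 fold changes 46 lost their call and none changed sign. The planned length as unique windows of the genome was not run. Counts were few for the tRNA genes, with 14 of 22 at 10 counts or fewer in every library, and the cause was not tested.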
